A study of Mus musculus with 8 samples.

Results

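The collagen chain genes are the genes that encode the alpha chains of the collagens, and they were taken here as every row of the count table whose symbol consists of Col, a number, the letter a and a number, which gave 43 of 26166 symbols. IXA4 is a small molecule that activates the IRE1/XBP1s arm of the unfolded protein response, the program by which cells adjust the folding and export capacity of the endoplasmic reticulum (ER). Bulk RNA-seq had been run on livers of 4 IXA4-treated and 4 vehicle-treated mice. All were males of strain C57BL/6N with obesity induced by diet (DIO mice), bought at 14 weeks of age and fed a diet with 60% of kcal as fat for 3 weeks ahead of dosing. IXA4 was injected intraperitoneally every day at 50 mg/kg for 8 weeks, and the other mice received the solvent (DMSO, Kolliphor EL, ethanol and saline) by the same route. No mouse in the comparison was lean or untreated, and a liver library mixes RNA of all cells of the organ, so that fewer cells of a type and less RNA per cell cannot be told apart.

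Collagens are triple helices of alpha chains that are hydroxylated and folded in the ER, exported as procollagen, trimmed outside the cell and crosslinked. Fibrillar collagens (types I, III and V) form the cables of scar and portal tissue, collagen IV and collagens XV and XVIII belong to basement membranes, collagen VI forms beaded filaments, and FACIT chains sit on the surface of fibrils. In the liver, fibrillar collagens come mainly from hepatic stellate cells and portal fibroblasts, whereas hepatocytes are a major source of collagen XVIII.

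Counts summed to 16986915 to 18390185 per IXA4 library and to 17399049 to 17807573 per vehicle library. Levels are given in CPM, counts scaled to a common normalized library size, at which 3 counts correspond to 0.163 to 0.182 CPM. Replicate numbers are those of the columns of the count table. Of the 43 collagen chain genes, 24 passed the filter on low counts and were tested together with 12427 genes in all. The other 19 stayed at or below 0.991 CPM in IXA4 libraries and at or below 1.15 CPM in vehicle libraries, and 2 of them (Col6a4 and Col19a1) had no count in any library.

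In IXA4-treated livers 9 of the 24 tested chains rose and 1 fell (edgeR quasi-likelihood test, adjusted p under 0.05), where 3.64% of all tested genes were called higher and 0.99% lower. The 9 were the fibrillar chains Col1a1, Col1a2, Col3a1 and Col5a2, the collagen VI chains Col6a1, Col6a2 and Col6a3, and the collagen IV chains Col4a5 and Col4a6. Col14a1, a FACIT chain, was the one that fell. The median log2 fold change was 0.84 over the 24 chains, against -0.01 over all tested genes. All 4 IXA4 libraries lay above all 4 vehicle libraries for 12 of the 24 chains, and 7.44% of all tested genes did so. The reverse order was found for 2 chains, Col5a3 and Col14a1, against 5.24% of all tested genes. The calls of 7 of the 9 held under every alternative tried, while those of Col4a5 and Col4a6 did not, as given with those genes.

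**Figure D1:**
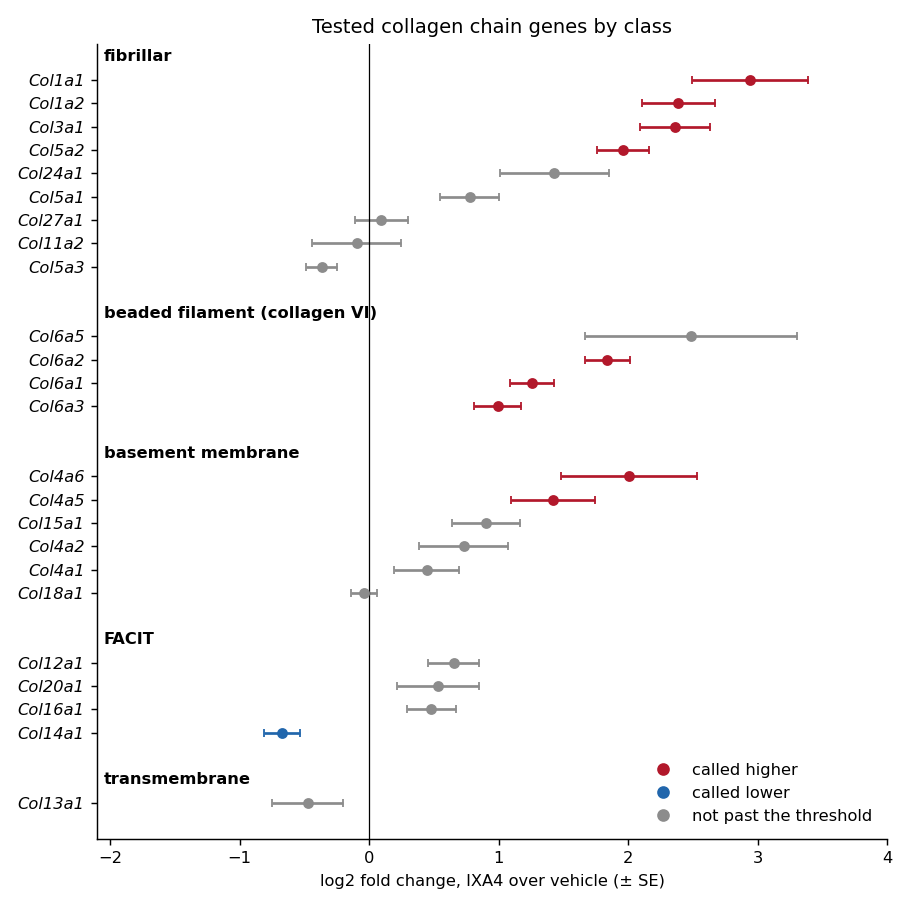
Log2 fold change of IXA4 over vehicle (horizontal axis, points, with bars of 1 SE) for the 24 tested collagen chain genes, grouped by class, from 4 libraries a group. The 9 chains called higher lie between 0.99 and 2.94, Col14a1 lies at -0.67, and the 14 grey points did not pass the threshold.

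The fibrillar class held 11 chains, of which 9 were tested and 4 rose. Col1a1 encodes the alpha1 chain of type I collagen, the main fibril collagen of scar. Its level was 60.6, 122, 41.0 and 76.2 CPM in IXA4 libraries 1 to 4, against 6.83, 11.7, 5.69 and 14.7 CPM in vehicle libraries 1 to 4. The lowest IXA4 library lay above the highest vehicle library, and IXA4 library 2 was the highest of all. The log2 fold change was 2.94 (SE 0.45, adjusted p = 0.0140, edgeR), a fold of 7.68 and rank 20 by fold change among the 12427 genes.

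Col1a2 encodes the partner alpha2 chain of type I collagen. It was at 69.1, 113, 49.2 and 79.5 CPM in IXA4 livers, against 11.8, 18.7, 11.1 and 17.7 CPM in vehicle livers. The groups did not overlap, and the IXA4 libraries stood in the same order as for Col1a1, with library 3 the lowest and library 2 the highest. The log2 fold change was 2.39 (SE 0.28, adjusted p = 0.00215, edgeR).

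Col3a1 encodes the chain of type III collagen, which forms thin reticular fibrils. It had 128, 156, 73.5 and 117 CPM in IXA4 libraries, against 18.9, 25.6, 16.6 and 31.3 CPM in vehicle libraries, and per kilobase of transcript it was at 21.4 CPM per kb with IXA4 and 4.15 CPM per kb with vehicle. It was the most abundant fibrillar chain per kilobase in the IXA4 group, while Col5a3 was so in the vehicle group, at 6.11 CPM per kb. The groups did not overlap, with IXA4 library 3 again the lowest of its group. The log2 fold change was 2.36 (SE 0.27, adjusted p = 0.00191, edgeR).

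Col5a2 encodes the alpha2 chain of type V collagen, which joins type I fibrils and limits their diameter. Its level was 15.3, 14.7, 11.8 and 13.1 CPM in IXA4 livers, against 2.33, 3.56, 3.09 and 5.13 CPM in vehicle livers. The IXA4 libraries were closer to each other than for type I or III chains. The log2 fold change was 1.96 (SE 0.20, adjusted p = 0.000141, edgeR).

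The other 5 tested fibrillar chains did not pass the threshold. Col5a1, the alpha1 chain of type V, averaged 9.53 ± 3.13 CPM with IXA4 and 5.55 ± 1.15 CPM with vehicle (SD, n = 4 each), with no overlap and an adjusted p of 0.0788 (edgeR). DESeq2 gave 0.0239 for the same gene. Col5a3, the alpha3 chain of type V, was the most abundant fibrillar chain that was not called, with 32.2, 33.7, 27.3 and 22.9 CPM in IXA4 libraries, against 40.6, 36.6, 36.1 and 36.3 CPM in vehicle libraries. All IXA4 libraries lay below all vehicle libraries (log2 fold change -0.36, SE 0.12, adjusted p = 0.112, edgeR). The 3 chains of type V therefore had log2 fold changes of 0.77, 1.96 and -0.36 in the order Col5a1, Col5a2 and Col5a3.

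Col24a1, a fibrillar chain best known from bone, had a log2 fold change of 1.43 (SE 0.42, adjusted p = 0.0775, edgeR; 0.0320 with DESeq2), from levels of 0.745 to 3.27 CPM with IXA4 and 0.5001 to 0.764 CPM with vehicle. Col27a1 (log2 fold change 0.09) and Col11a2 (-0.10), chains known from cartilage, overlapped between the groups. Col2a1 and Col11a1, also cartilage chains, were not tested.

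**Figure D2:**
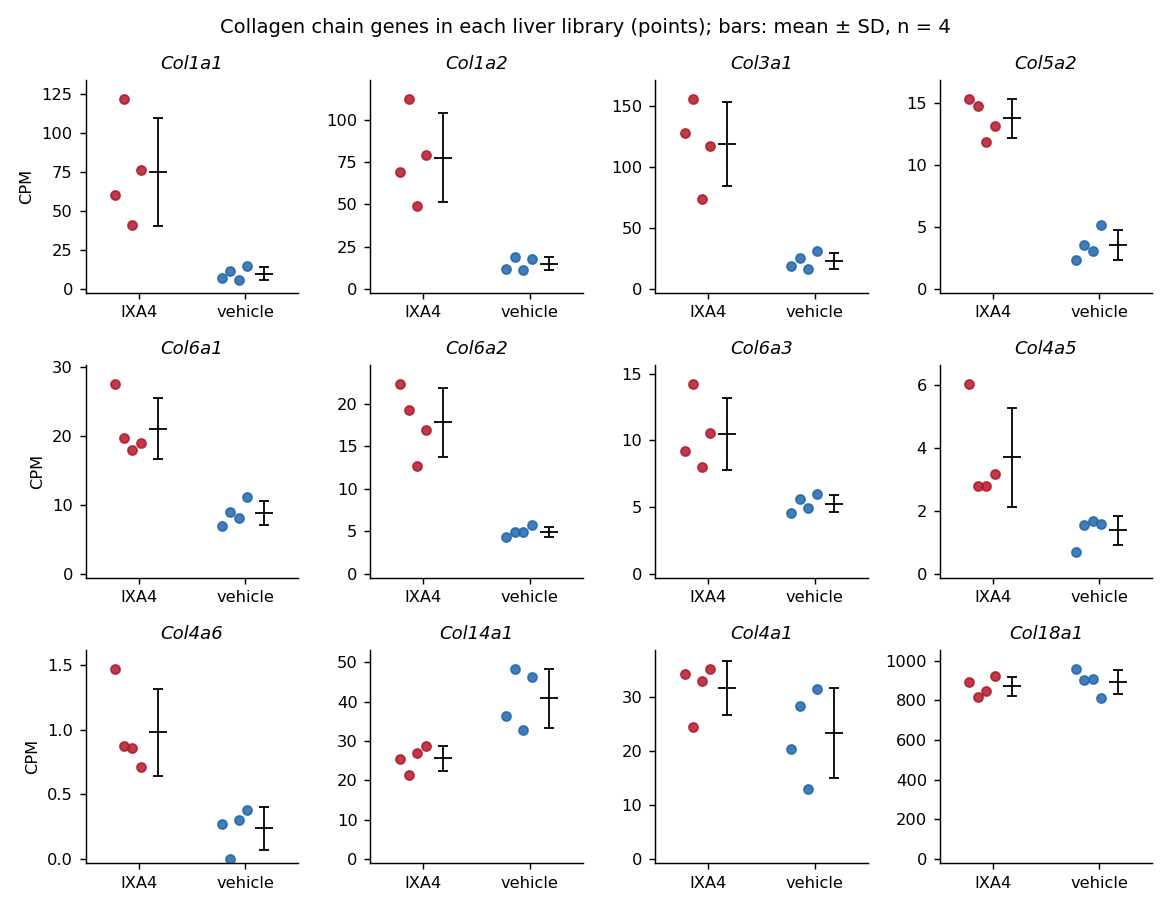
CPM (vertical axes, linear and reaching 0) of the 10 called collagen chain genes and of Col4a1 and Col18a1 in each of the 4 IXA4 and 4 vehicle libraries, with mean ± SD to the right of each group. IXA4 libraries lie above vehicle libraries in the 9 panels of genes that rose and below them for Col14a1, whereas the groups overlap for Col4a1 and Col18a1.

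Of the 6 collagen VI chains, 4 were tested and 3 rose. Col6a1 and Col6a2 encode the short chains and Col6a3 the long chain of the classical collagen VI monomer, which links cells to the interstitial matrix. Col6a1 had 27.5, 19.7, 18.0 and 18.9 CPM in IXA4 livers, against 6.94, 9.002, 8.17 and 11.1 CPM in vehicle livers (log2 fold change 1.26, SE 0.17, adjusted p = 0.00104, edgeR). The groups were separate, and IXA4 library 1 was the highest.

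Col6a2 was at 22.3, 19.2, 12.7 and 16.9 CPM with IXA4, against 4.33, 4.89, 4.90 and 5.73 CPM with vehicle. Its vehicle libraries were tightly grouped and all below the lowest IXA4 library. It had the smallest adjusted p of the collagen chain genes (log2 fold change 1.84, SE 0.17, adjusted p = 9.14e-05, edgeR). Col6a3 was at 9.21, 14.2, 8.02 and 10.5 CPM with IXA4, against 4.55, 5.61, 4.96 and 5.95 CPM with vehicle, again with no overlap (log2 fold change 0.99, SE 0.18, adjusted p = 0.00763, edgeR).

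Col6a5 encodes an alternative long chain of collagen VI. It had 1.36, 4.43, 0.688 and 0.876 CPM in IXA4 libraries, against 0.596, 0.5001, 0 and 0.164 CPM in vehicle libraries. IXA4 library 2 stood above the others, and the log2 fold change of 2.49 had an SE of 0.82 (adjusted p = 0.139, edgeR). Of the tested chains, 3 (Col4a6, Col6a5 and Col24a1) reached the level of the filter, 0.563 CPM, in all 4 IXA4 libraries but in fewer than 4 vehicle libraries, so they entered the test through their IXA4 values.

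The basement membrane class had 8 chains, of which 6 were tested and 2 rose. Col4a5 and Col4a6 encode the alpha5 and alpha6 chains of collagen IV, which form networks of restricted tissue distribution, known from kidney and from smooth muscle and epithelial basement membranes. Col4a5 was at 6.05, 2.80, 2.81 and 3.18 CPM in IXA4 livers, against 0.704, 1.56, 1.69 and 1.58 CPM in vehicle livers. The groups did not overlap, but library 1 was the highest IXA4 and the lowest vehicle library. The log2 fold change was 1.42 (SE 0.32, adjusted p = 0.0255, edgeR), and the call was lost in 4 of 14 alternatives, which left out IXA4 replicate 1 or vehicle replicate 1, 2 or 4, with adjusted p-values up to 0.0751.

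Col4a6 was at 1.47, 0.875, 0.860 and 0.712 CPM with IXA4, which is 26, 15, 15 and 13 counts, against 0.271, 0, 0.303 and 0.382 CPM with vehicle, which is 5, 0, 5 and 7 counts. The log2 fold change of 2.00 (SE 0.52) passed narrowly (adjusted p = 0.0468, edgeR). The call was lost in 10 of the 13 alternatives that tested the gene, with adjusted p-values up to 0.127, and leaving out any single library was enough to lose it.

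The chains of the ubiquitous collagen IV network, Col4a1 and Col4a2, did not pass the test. Col4a1 averaged 31.8 ± 4.98 CPM with IXA4 and 23.3 ± 8.34 CPM with vehicle (log2 fold change 0.44, SE 0.25, adjusted p = 0.383, edgeR). Col4a2 averaged 27.2 ± 8.85 CPM with IXA4 and 16.4 ± 6.51 CPM with vehicle (SD, n = 4 each; log2 fold change 0.73, SE 0.34, adjusted p = 0.299, edgeR). Both overlapped between the groups, with vehicle library 3 the lowest for each. Col15a1, the chain of collagen XV, had a log2 fold change of 0.90 (SE 0.26, adjusted p = 0.0775, edgeR; 0.0231 with DESeq2).

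Col18a1, whose product carries endostatin at its end, was by far the most abundant collagen chain gene. It had 894, 819, 848 and 923 CPM in IXA4 libraries, against 959, 901, 907 and 810 CPM in vehicle libraries. The ranges overlapped almost completely (log2 fold change -0.04, SE 0.10, adjusted p = 0.872, edgeR). Per kilobase of transcript it was at 137 CPM per kb with IXA4 and 141 CPM per kb with vehicle, above every other chain.

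The make-up of the collagen transcripts is given as shares of the level per kilobase. In that measure, Col18a1 accounted for 53.9 to 67.2% of the summed level of all 43 chains in IXA4 livers, against 73.4 to 82.1% in vehicle livers. Col1a1, Col1a2 and Col3a1 together accounted for 14.7 to 29.1% with IXA4, against 3.45 to 6.56% with vehicle. These sums are given as descriptions, with no test.

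The summed level of the fibrillar chains was 39.3 to 84.0 CPM per kb in IXA4 libraries and 15.6 to 21.7 CPM per kb in vehicle libraries, and collagen VI chains summed to 8.12 to 12.8 CPM per kb in the IXA4 group, against 3.25 to 4.73 CPM per kb in the vehicle group. Neither range overlapped between the groups. The basement membrane chains other than Col18a1 summed to 8.43 to 13.7 CPM per kb with IXA4 and 4.04 to 9.41 CPM per kb with vehicle, and these ranges did overlap.

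**Figure D3:**
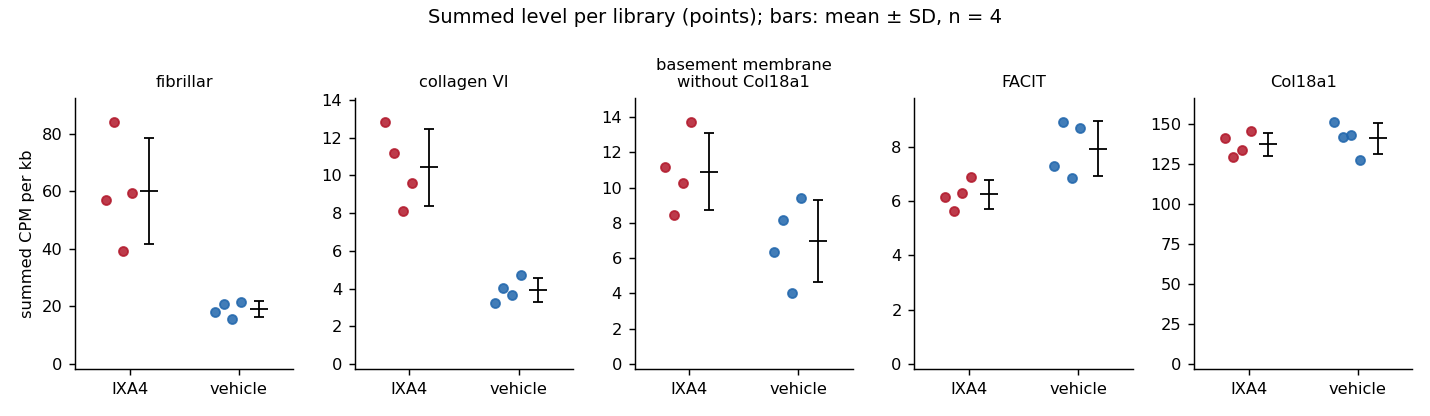
Summed level of each class in CPM per kilobase of transcript (vertical axes, linear and reaching 0) in each IXA4 and vehicle library, with mean ± SD (n = 4) to the right of each group, and Col18a1 on its own. Fibrillar and collagen VI sums are higher in every IXA4 library, at 39.3 to 84.0 and 8.12 to 12.8, than in any vehicle library, while Col18a1 overlaps.

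Of the 9 FACIT chains 4 were tested and 1 fell. By edgeR 0 were called higher (2 at an unadjusted p under 0.05, and 0 by DESeq2), where 3.64% of all tested genes were called higher by edgeR. DESeq2 called 636 of the 12427 genes higher, and no share over all genes is given for an unadjusted p. Col14a1, whose product decorates collagen fibrils, was at 25.4, 21.4, 27.0 and 28.7 CPM in IXA4 livers, against 36.4, 48.3, 32.7 and 46.2 CPM in vehicle livers. The highest IXA4 library lay below the lowest vehicle library (log2 fold change -0.67, SE 0.14, adjusted p = 0.0139, edgeR). Without vehicle replicate 2 the adjusted p was 0.0544. It was the most abundant FACIT chain per kilobase. The sum over the FACIT class lay between 5.63 and 6.89 CPM per kb in IXA4 livers, against 6.85 and 8.91 CPM per kb in vehicle livers.

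The most abundant FACIT chain that was not called was Col16a1, with 7.29, 5.60, 4.07 and 5.70 CPM in IXA4 libraries, against 4.06, 4.001, 3.51 and 4.64 CPM in vehicle libraries. The ranges overlapped slightly (log2 fold change 0.48, SE 0.19, adjusted p = 0.185, edgeR). Col12a1, a FACIT chain of tendon and of tissue under strain, averaged 3.83 ± 0.367 CPM with IXA4 and 2.43 ± 0.493 CPM with vehicle (SD, n = 4 each), without overlap and with an adjusted p of 0.0854 (edgeR). Col20a1 had a log2 fold change of 0.53 and overlapped.

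Among the transmembrane chains only Col13a1, a collagen of cell junctions, was tested. It had 1.64, 3.32, 3.32 and 3.83 CPM in IXA4 libraries, against 3.36, 5.28, 2.91 and 5.29 CPM in vehicle libraries, which overlapped (log2 fold change -0.48, SE 0.28, adjusted p = 0.380, edgeR). The short-chain network collagens (Col8a1, Col8a2 and Col10a1) and the anchoring fibril chain Col7a1 were too low to test.

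Chains that assemble into 1 molecule, or into 1 fibril, were also compared as ratios of counts within each library, which no scaling of the library can change. Of 7 ratios tested, 6 separated the groups completely and reached p = 0.0286, the smallest that a two-sided exact permutation test of 4 against 4 libraries can give (0.0333 after adjustment over the 7). Col1a1 over Col1a2 was 0.877, 1.09, 0.834 and 0.959 in IXA4 libraries, against 0.582, 0.626, 0.515 and 0.831 in vehicle libraries, a difference of 0.57 on the log2 scale. The lowest IXA4 ratio was just above the highest vehicle ratio, so the separation was narrow. With 1 library left out, this ratio passed the threshold in 0 of 8 cases. Each of the other 5 that separated the groups passed in 2 of 8, without IXA4 replicate 1 or 3. Adjusted p-values reached 0.2 among the rest (exact permutation test). Leaving out a library cannot undo a complete separation, and the adjustment over the 7 couples the ratios. These counts therefore do not measure how stable any 1 ratio is.

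Col5a1 over Col5a2 was 0.473 to 0.937 in IXA4 livers and 1.25 to 2.68 in vehicle livers, a difference of -1.26 on the log2 scale and the largest of the 7. Col6a1 over Col6a2 was 1.02 to 1.41 with IXA4, against 1.596 to 1.94 with vehicle (difference -0.56). Within type V and within collagen VI, the partner chains thus did not change in equal measure.

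Col3a1 over Col1a1 was 1.28 to 2.12 with IXA4, against 2.12 to 2.90 with vehicle (difference -0.58), with the highest IXA4 and the lowest vehicle ratio nearly equal, and with 5 counts added to each chain its adjusted p was 0.0667 (exact permutation test). Col5a2 over Col1a1 was 0.121 to 0.288 with IXA4, against 0.306 to 0.545 with vehicle (difference -0.93). Relative to Col1a1, therefore, Col3a1 and Col5a2 were lower in every IXA4 library than in any vehicle library.

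Col4a1 over Col4a2 was 1.32, 1.32, 1.34 and 0.893 in IXA4 libraries, against 1.38, 1.44, 1.62 and 1.37 in vehicle libraries. IXA4 library 4 stood apart, and without it the log2 difference of -0.27 became -0.13. Col6a1 over Col6a3 was 1.38 to 2.98 with IXA4, against 1.52 to 1.87 with vehicle and overlapped (difference 0.29, exact permutation p = 0.314).

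**Figure D4:**
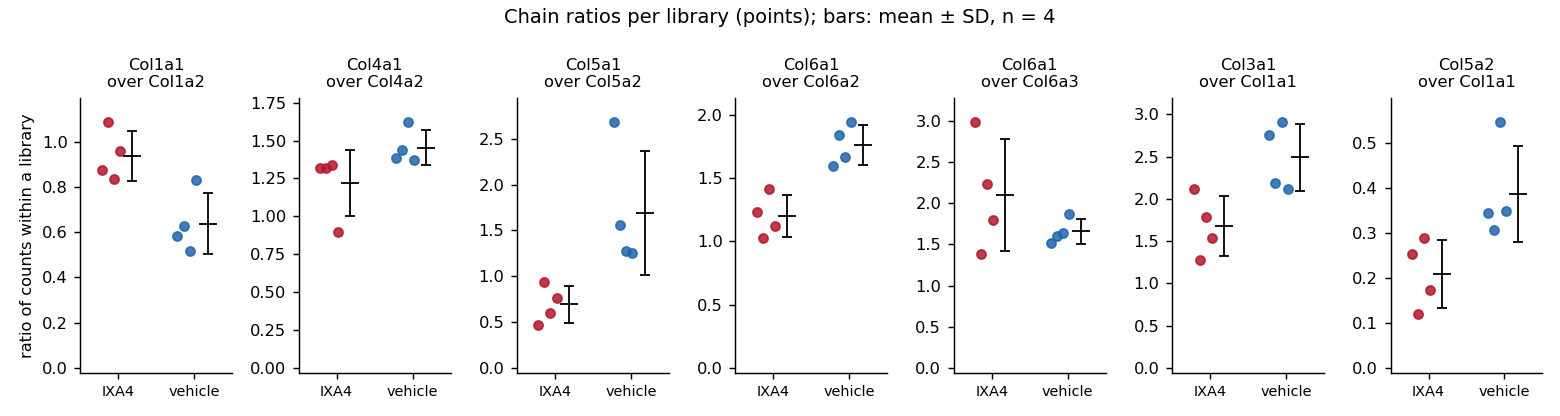
Ratio of the counts of 2 collagen chain genes within a library (vertical axes, linear and reaching 0) for 7 pairs in the 4 IXA4 and 4 vehicle libraries, with mean ± SD to the right of each group. The groups are separate in 6 panels, most widely for Col5a1 over Col5a2 (0.473 to 0.937 with IXA4, 1.25 to 2.68 with vehicle), and overlap for Col6a1 over Col6a3.

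Several of the chains that rose are neighbours in the genome. In the NCBIM37 assembly, Col3a1 (chromosome 1, 45368383 to 45406551) and Col5a2 (45431166 to 45560127) lie end to end on opposite strands, 24614 bp apart, Col6a2 (chromosome 10, 76058507 to 76086375) and Col6a1 (76171537 to 76188913) lie 85161 bp apart on the same strand, and Col4a6 (chromosome X, 137599946 to 137908619) and Col4a5 (137909928 to 138123778) are transcribed away from each other with 1308 bp between them. Both genes were called higher in each of these 3 pairs. For Col4a6 and Col4a5, however, neither call held under every alternative, and Col4a6 entered the test through its IXA4 values. The other divergent pair with tested genes, Col4a1 and Col4a2 on chromosome 8, had no called member. Their annotated exons overlap by 22 bp on opposite strands. The exons of Col1a1 overlap those of the predicted gene Gm17329 by at most 41 bp and those of Col5a1 overlap Gm13372 by at most 113 bp, on opposite strands, and the share of reads in such overlaps cannot be told apart.

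The promoters were examined for letters recognised by general factors and by UPR factors. RefSeq promoter sequences of GRCm38.p6 were found for 35 of the 43 chains, among them 7 of the 9 that rose. None was found for Col1a1 and Col5a2, which rose, or for Col14a1, which fell, so these were not searched. The 120 bases before the start of the fibrillar genes Col1a2 and Col3a1, which rose together, and of the divergent pair Col4a6 and Col4a5 are shown 5′ to 3′ on the strand of the gene, with capitals marking the CCAAT box, the TATA box spelled TATAAA and the motif core ACGTG on either strand.
Col1a2, chr6:4505498-4505617, plus strand: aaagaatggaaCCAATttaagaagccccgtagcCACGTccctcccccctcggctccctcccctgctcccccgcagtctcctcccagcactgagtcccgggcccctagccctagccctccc
Col3a1, chr1:45311418-45311537, plus strand: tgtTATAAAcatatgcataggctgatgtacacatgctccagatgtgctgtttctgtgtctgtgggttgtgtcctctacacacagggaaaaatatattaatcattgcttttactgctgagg
Col4a6, chrX:141474077-141474196, minus strand: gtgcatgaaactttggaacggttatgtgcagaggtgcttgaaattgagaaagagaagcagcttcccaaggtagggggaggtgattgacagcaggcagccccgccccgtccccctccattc
Col4a5, chrX:141475299-141475418, plus strand: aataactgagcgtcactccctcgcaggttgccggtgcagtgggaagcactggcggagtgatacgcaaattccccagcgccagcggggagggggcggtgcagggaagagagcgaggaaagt

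The 250 bases before the start were searched on both strands. The CCAAT box was found for 13 of the 35 collagen genes and in 33.8% of all 32851 promoters. For each motif, a gene was counted if any of its promoters held the letters, while the share over all is per promoter. Of the 7 that rose, Col1a2 and Col4a5 had it. The GC box, GGGCGG, was in 21 of the 35 and in 32.7% of all promoters, and of the 7 in Col1a2, Col4a5, Col4a6 and Col6a2. The letters TATAAA of the TATA box, counted at any position of the 250 bases, were in 5 of the 35 and in 12.4% of all. Of the 7 only Col3a1 had them, beginning 117 bases before the start. The core ACGTG, contained in elements bound by XBP1s and ATF6, was in 5 of the 35 and in 16.6% of all promoters, and of the 7 only in Col1a2. The element TGACGTGG, which contains that core, was in none of the 35 and in 0.563% of all promoters, and the ER stress response element, which is a CCAAT box followed after 9 further bases by the letters CCACG, was in none of the 35 and in 0.113% of all.

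The genes that act on collagen chains were counted from lists of known roles. Over all tested genes 3.64% were called higher and 0.99% lower by edgeR, so 0 calls in lists of this length lie near those shares. DESeq2 called 636 of the 12427 genes higher and 256 lower. For counts at an unadjusted p the share over all genes is not given, so those counts cannot be read against all genes. Of 14 tested genes for hydroxylation and folding in the ER, 6 rose by edgeR and by DESeq2, and 0 fell by either tool or at an unadjusted p under 0.05. The 6 included Serpinh1, the collagen chaperone HSP47 (12.9 CPM with IXA4 and 4.62 CPM with vehicle, log2 fold change 1.48, adjusted p = 0.000666), and Lepre1, a prolyl 3-hydroxylase (log2 fold change 0.84, adjusted p = 0.00698). Plod2 and Fkbp10, also among the 6, reached the level of the filter in 4 IXA4 but only 3 vehicle libraries. They thus entered the test through their IXA4 values. Plod1, a lysyl hydroxylase, was the most abundant of those that were not called, with a log2 fold change of -0.10.

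Of 10 genes for the export of large cargo 3 rose, where 3.64% of all tested genes were called higher. Among the 3 were Sec24d, a COPII coat gene and a known XBP1s target (157 CPM with IXA4 and 63.9 CPM with vehicle, log2 fold change 1.29, adjusted p = 0.00885), and Sec31a (log2 fold change 0.50, adjusted p = 0.0144). The most abundant gene of the list, Ctage5, had -0.05. Of 5 tested genes for procollagen processing 0 were called by edgeR, by DESeq2 or at an unadjusted p under 0.05, including Bmp1, the C-propeptide protease (log2 fold change -0.12). Of 5 tested crosslinking genes 2 were called higher. Loxl1 had a fold change of 1.39 on the log2 scale (adjusted p = 0.0189). Lox, lysyl oxidase, had 34, 28, 19 and 28 counts in IXA4 libraries, against 1, 2, 2 and 0 counts in vehicle libraries (adjusted p = 0.000275, edgeR). It reached the level of the filter in 0 vehicle libraries, so it entered the test through its IXA4 values. Loxl2 and Loxl3, which were not called, reached that level in 2 vehicle libraries each and entered likewise. The most abundant crosslinking gene, Tgm2, had a log2 fold change of 0.10.

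Of 9 tested genes for collagen degradation and uptake 3 rose and 1 fell, where 3.64% of all tested genes were called higher and 0.99% lower. Timp1, an inhibitor of metalloproteinases, stood at 2.78 on the log2 scale (adjusted p = 0.00176), Mmp2, a gelatinase, at 1.55 (adjusted p = 0.00251), and the membrane-type metalloproteinase gene Mmp15 at -0.58 (adjusted p = 0.0131). Mmp19, the most abundant gene of this list that was not called, stood at -0.04. Of 12 fibril organisers 3 rose, with Lum, lumican, at a log2 fold change of 1.47 (adjusted p = 0.000680) and Thbs1, thrombospondin, at 2.63 (adjusted p = 0.000754), which reached the level of the filter in 1 vehicle library, while Fn1, fibronectin, was the most abundant and had 0.22. Of 6 tested collagen receptors 0 were called by edgeR (1 at an unadjusted p under 0.05, and 1, Ddr1, by DESeq2), and the most abundant, the integrin gene Itgb1, had a log2 fold change of -0.01. Of 14 tested laminins and other basement membrane partners 0 rose by edgeR (1 at an unadjusted p under 0.05, and 0 by DESeq2) and 2 fell, Lamb3 (log2 fold change -1.05, adjusted p = 0.0263) and Lama1 (-0.79, adjusted p = 0.0334), while Agrn, agrin, had 0.28 and was not called.

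Markers of the cell types that make collagen differed in direction. Beside the counts of all marker lists stand the shares of all tested genes, 3.64% called higher and 0.99% lower by edgeR. Counts of 0 in such short lists lie near those shares. DESeq2 called 636 of the 12427 genes higher and 256 lower. No share over all genes is given for an unadjusted p. Of 12 hepatic stellate cell markers 2 fell by edgeR, Reln (log2 fold change -0.92, adjusted p = 0.00441) and Colec11 (-0.93, adjusted p = 0.00727). By edgeR, by DESeq2 or at an unadjusted p under 0.05, 0 rose. Log2 fold changes were negative for 11 of 12, including -0.57 for Ecm1, the most abundant. Of the 11, Ngfr and Lrat reached the level of the filter in 4 vehicle libraries but in only 0 and 2 IXA4 libraries. Ngfr and Lrat thus entered the test through their vehicle values. The median log2 fold change over all tested genes was -0.01. The stellate cell markers summed to 157 to 256 CPM in IXA4 livers, against 260 to 347 CPM in vehicle livers. Of this sum Ecm1, which was not called, made up 135 CPM on average with IXA4 and 200 CPM with vehicle. Of 6 tested portal fibroblast markers 2 rose, Fbln2 (log2 fold change 3.17, adjusted p = 8.3e-05) and Mfap4 (1.83, adjusted p = 0.0360), the second of which reached the level of the filter in 1 vehicle library. Their sum was 20.3 to 33.1 CPM in IXA4 livers, against 10.95 to 15.6 CPM in vehicle livers, of which Fbln2 made up 12.5 CPM on average with IXA4 and 1.37 CPM with vehicle. Entpd2, the most abundant marker of this list that was not called, averaged 6.15 CPM with IXA4 and 7.24 CPM with vehicle (log2 fold change -0.24).

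Acta2, smooth muscle actin, was the one of 5 tested myofibroblast markers that rose (log2 fold change 1.56, adjusted p = 0.00761), while Tpm2, the most abundant, had -0.48, and the summed level of these markers overlapped. Of 6 tested mesothelial markers 1 rose, Upk1b (log2 fold change 1.71, adjusted p = 0.0223), while Msln, the most abundant, had 0.43, with sums of 10.4 to 41.1 CPM with IXA4 and 7.37 to 21.6 CPM with vehicle. The mesothelial sum was highest in IXA4 library 1, where Col4a5, Col4a6, Col5a2, Col6a1 and Col6a2 also had their highest value. The other 4 chains that rose were highest in IXA4 library 2. Within the IXA4 group the mesothelial sum was lowest in library 4, where only 1 chain that rose, Col4a6, was lowest. Library 3 held the lowest IXA4 value of 7 of these chains. The portal fibroblast sum was 30.5, 33.1, 20.3 and 23.6 CPM in IXA4 libraries 1 to 4, highest in library 2 and lowest in library 3. Stellate cell and myofibroblast sums were also highest in IXA4 library 2, but lowest in library 1 and library 4. What these orders reflect was not tested. Cholangiocyte markers summed to 44.8 to 50.2 CPM with IXA4 and 26.3 to 31.2 CPM with vehicle. Of this sum Spp1 alone made up 37.6 CPM on average with IXA4 and 23.2 CPM with vehicle. Spp1 and Krt19 were called higher and Krt7 was not called (log2 fold change 0.85).

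No log2 fold change of the sinusoidal and vascular endothelial markers was positive. By edgeR 3 of 9 sinusoidal and 3 of 6 vascular markers fell, where 0.99% of all tested genes were called lower. They were led by Kdr (log2 fold change -0.93, adjusted p = 0.0115), Oit3 (-1.15, adjusted p = 0.0266), Tie1 (-0.69, adjusted p = 0.0247) and Eng (-0.72, adjusted p = 0.0254). The most abundant uncalled markers were Stab1 (log2 fold change -0.26) and Pecam1 (-0.56). Sinusoidal markers summed to 104 to 179 CPM with IXA4 and 139 to 241 CPM with vehicle. Vascular markers summed to 42.3 to 60.7 CPM with IXA4 and 55.6 to 101 CPM with vehicle. Both sums overlapped between the groups. Of 8 hepatocyte markers 0 were called by edgeR (1, Tat, was lower at an unadjusted p under 0.05 and by DESeq2), and of 10 macrophage markers 0 were called by edgeR, by DESeq2 or at an unadjusted p under 0.05. Of 5 adipocyte markers, Adipoq and Lep had no count in any library, Plin1 and Retn had at most 3 counts per library, and Cfd, adipsin, was at 8.06 CPM with IXA4 and 20.7 CPM with vehicle on average. Of 6 acinar markers, Cpa1 and Pnlip had no count, Ctrb1, Amy2a5 and Prss2 had at most 3 counts per library, and Cela1 was at 4.77 CPM with IXA4 and 5.58 CPM with vehicle. Neither Cfd nor Cela1 was called, nor was Igj, the one tested marker of T and B cells. The part of these cell types in the collagen values was not tested.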

How the data were processed

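The authors sequenced liver RNA of 4 mice given IXA4 and 4 given vehicle as single-end reads. They aligned the reads to NCBI build 37 of the mouse genome with SeqManPro and quantified them with ArrayStar. The deposited table holds raw counts of total reads per gene symbol, from 16986915 to 18390185 per library. Which annotation and strand setting were used, and how reads with several matches were handled, is not given in the sources used here. The libraries headed with a compound code were taken as IXA4 because the other columns are headed as vehicle, and the replicate numbers were not matched to animals. A deposited table of the authors' own comparison (DESeq fold changes and p-values) was not used.

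Genes were kept by filterByExpr (minimum count 10, minimum total 15), normalized by TMM and tested by the robust quasi-likelihood F test of edgeR 4.0.16 in R 4.3.3, with Benjamini-Hochberg adjustment of p-values over the 12427 genes kept and called under 0.05. Each SE is the log2 fold change divided by the square root of F. Levels per kilobase used the longest protein-coding transcript of a GENCODE annotation of NCBIM37. Ratios of chains had 0.5 added to each count. Alternatives were other size factors, total counts, other filters, DESeq2 1.42.0, edgeR without robust estimation, other pseudocounts and leaving out each library. The scripts were tested on simulated data. The members and lists were chosen with earlier results of these data known. Every tested chain is named, with library values for those called and for the most abundant uncalled chain of each class. In other lists, up to 2 called genes of smallest p in each direction and the most abundant uncalled gene were to be named.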

Additional observations from a re-analysis of the deposited data

Results flagged for a closer look

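In 62 groups of 4 values (24 tested chains and 7 ratios in each treatment), 5 held 1 library whose gap to its nearest neighbour was too large a part of the range of the group by Dixon's test, as chance gives in about 1 group in 20. Col4a5 was at 6.05 CPM in IXA4 library 1 and at 0.704 CPM in vehicle library 1. Col5a3 was at 40.6 CPM in vehicle library 1. Col12a1 was at 3.28 CPM in IXA4 library 1. The ratio of Col4a1 to Col4a2 was 0.893 in IXA4 library 4.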

How the results depend on the processing

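When each library was left out, 7 to 9 collagen chain genes were called higher, of which 7 or 8 were among the 9 of the main fit. The added ones were Col15a1 without IXA4 replicate 1 and Col24a1 without IXA4 replicate 3. The 1 called lower became 0 to 1. Col1a1, Col1a2, Col3a1, Col5a2, Col6a1, Col6a2 and Col6a3 stayed called under all 14 alternatives. DESeq2 called 12 chains higher, adding Col5a1, Col15a1 and Col24a1. Over all genes 452 were called higher and 123 lower, against 261 to 613 higher and 43 to 162 lower with a library left out. DESeq2 called 636 higher and 256 lower. With 5 counts added, the ratio of Col3a1 to Col1a1 differed by -0.56 on the log2 scale with an adjusted p of 0.0667 in the exact permutation test. With 1 library left out the ratio differences were 0.48 to 0.71 for Col1a1 to Col1a2, -0.32 to -0.13 for Col4a1 to Col4a2, -1.42 to -1.01 for Col5a1 to Col5a2, -0.64 to -0.49 for Col6a1 to Col6a2, 0.10 to 0.47 for Col6a1 to Col6a3, -0.70 to -0.46 for Col3a1 to Col1a1 and -1.11 to -0.70 for Col5a2 to Col1a1. The log2 ratio of summed basement membrane chains, 0.0023, was -0.0316 with total counts and -0.0339 to 0.0364 with a library left out. With a library left out, the log2 fold change of Col11a2 ranged between -0.30 and 0.17, positive only without IXA4 replicate 1, and that of Col27a1 between -0.12 and 0.21, negative only without IXA4 replicate 2. The cause of these shifts was not tested. No paired analysis was possible because the groups share fewer than 2 animal numbers and the columns carry none. Chains that average under 1 CPM rest on few counts. Of these Col4a6 was called, and 19 chains were too low to test.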
